A study of Aspergillus niger with 8 samples.

Results

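The genes described here carry acetate into central metabolism and on towards sugar in Aspergillus niger, a filamentous fungus that grows on plant debris. They were taken by the An identifiers that 14114 rows of the gene tables carry, and number 6 of the 15431 genes listed. They are An04g05620 for acetyl-CoA synthetase, An01g09270 for isocitrate lyase, An15g01860 for malate synthase, An11g02550 for phosphoenolpyruvate (PEP) carboxykinase, and the pair that the study lists under acetate catabolism, An18g01590 for carnitine O-acetyltransferase and An03g03360 for a carnitine carrier. Each identifier stood in 1 row of the tables. RNA-seq libraries came from mycelium of strain N402 in 4 conditions with 2 cultures each, A and B. Mycelium grown for 48 h in 1% glucose was either sampled directly (glucose) or washed and moved to medium with ball-milled wheat straw for 6 h, or to medium without any carbon source for 6 h or 24 h (carbon starvation). All straw and starvation cultures had thus been through glucose, washing and transfer, and the glucose cultures had not been washed or transferred, so the change of carbon source and the transfer itself cannot be told apart in comparisons with glucose.

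As background, a cell that lives on acetate or on fatty acids first has to make acetyl-CoA and then has to build sugars from it. Acetyl-CoA synthetase activates free acetate, and carnitine acetyltransferase with its membrane carrier moves acetyl groups between peroxisome, cytosol and mitochondrion. Isocitrate lyase and malate synthase form the glyoxylate bypass, which skips the steps of the tricarboxylic acid (TCA) cycle that release carbon dioxide, and PEP carboxykinase draws oxaloacetate from the cycle into gluconeogenesis. In the related fungus Aspergillus nidulans these genes are known for repression on glucose and induction on acetate.

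The libraries held between 14635638 and 32040412 counted reads, of which only 1.41% to 3.40% lay on genes, or 205778 to 979256 reads per library. The deposited RPKM (reads per kilobase of gene model, scaled to library size) was scaled to all counted reads, with or without a gene, so it reads low in the starvation libraries, in which 1.41% to 2.04% of reads lay on genes, and in straw culture A (1.97%). For this reason levels are given as RPKM and differences also as log2 fold changes from edgeR, which scales by reads on genes with TMM factors. A gene was called when its quasi-likelihood test gave a Benjamini-Hochberg adjusted p below 0.05 over 6357 tested genes and its mean RPKM differed at least 3-fold in the same direction. The RPKM scaling weighs on such calls: at 6 h of starvation 595 genes were called higher and 951 lower than on glucose, but 908 and 773 with RPKM per reads on genes, and at 24 h 813 and 1112 became 1098 and 772. In bulk RNA, fewer cells of a type and less RNA per cell cannot be told apart. Reads on the 6 genes were between 12.3 and 21.0 per 10000 reads on genes on glucose, 88.6 and 166 on straw, 105 and 126 at 6 h of starvation, and 44.2 and 20.5 at 24 h. The summed level of 3 genes for conidiation regulators, which drive spore formation, was 0.868 to 2.49 RPKM at 24 h of starvation. It was 0.128 to 0.413 RPKM in the other 6 libraries. The sums rest on few reads, 61 and 22 at 24 h of starvation (cultures A and B) and 10 and 19 on glucose. All 3 genes had reads in both 24 h libraries and in both glucose libraries, and the brlA-like An01g10540 was without reads on straw. Of the 3, An01g08900 did not rise above glucose, with 0.151 and 0.0404 RPKM at 24 h against 0.0830 and 0.187. The part of spore-forming cells in the 24 h results was not tested.

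Isocitrate lyase was the most abundant of the 6 transcripts per length of gene model in 7 of the 8 libraries, and acetyl-CoA synthetase was in the other, 24 h starvation culture A. Isocitrate lyase had 8.40 and 14.6 RPKM on glucose (cultures A and B), 39.9 and 173 on straw, 36.3 and 76.9 at 6 h of starvation, and 15.99 and 5.55 at 24 h. It thus ranked 455th and 232nd of all genes on glucose and 25th and 15th on straw. Acetyl-CoA synthetase had 6.41 and 10.7 RPKM on glucose, 23.3 and 66.8 on straw, 28.1 and 23.3 at 6 h of starvation, and 19.2 and 4.67 at 24 h. For both genes every straw and 6 h starvation library lay above every glucose library, and the 24 h libraries lay on either side of the glucose values.

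Malate synthase, which uses the glyoxylate made by isocitrate lyase, was far less abundant. It had 0.976 and 3.32 RPKM on glucose, 11.01 and 21.0 on straw, 2.32 and 3.003 at 6 h of starvation, and 1.02 and 0.755 at 24 h. The straw libraries stood apart from all others. The 6 h starvation libraries fell between the glucose cultures in RPKM, but with RPKM per reads on genes they lay above both (157 and 168 against 32.8 and 111). The glucose cultures themselves differed 3.40-fold, the widest gap between cultures for this gene.

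PEP carboxykinase was the least abundant of the 6 on glucose, with 16 and 13 reads, or 0.371 and 0.254 RPKM. It had 6.27 and 8.86 RPKM on straw, 4.73 and 3.49 at 6 h of starvation, and 3.45 and 1.46 at 24 h. All 6 libraries from mycelium off glucose lay above the glucose libraries, and the order straw, 6 h starvation, 24 h starvation had no overlap in RPKM. Per reads on genes, straw and 6 h starvation overlapped (318 and 261 against 322 and 195).

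The carnitine acetyltransferase had 0.896 and 1.27 RPKM on glucose, 4.96 and 10.2 on straw, 2.58 and 6.41 at 6 h of starvation, and 2.34 and 1.17 at 24 h. The carnitine carrier had 1.39 and 1.57 RPKM on glucose, 4.16 and 11.2 on straw, 1.18 and 3.06 at 6 h of starvation, and 0.979 and 0.768 at 24 h. The carrier was highest on straw, whereas the straw and 6 h starvation libraries overlapped for the acetyltransferase. At 6 h of starvation the acetyltransferase lay above its glucose range and the carrier did not, but with RPKM per reads on genes the carrier did too (80.2 and 171 against 46.7 and 52.6).

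**Figure D1:**
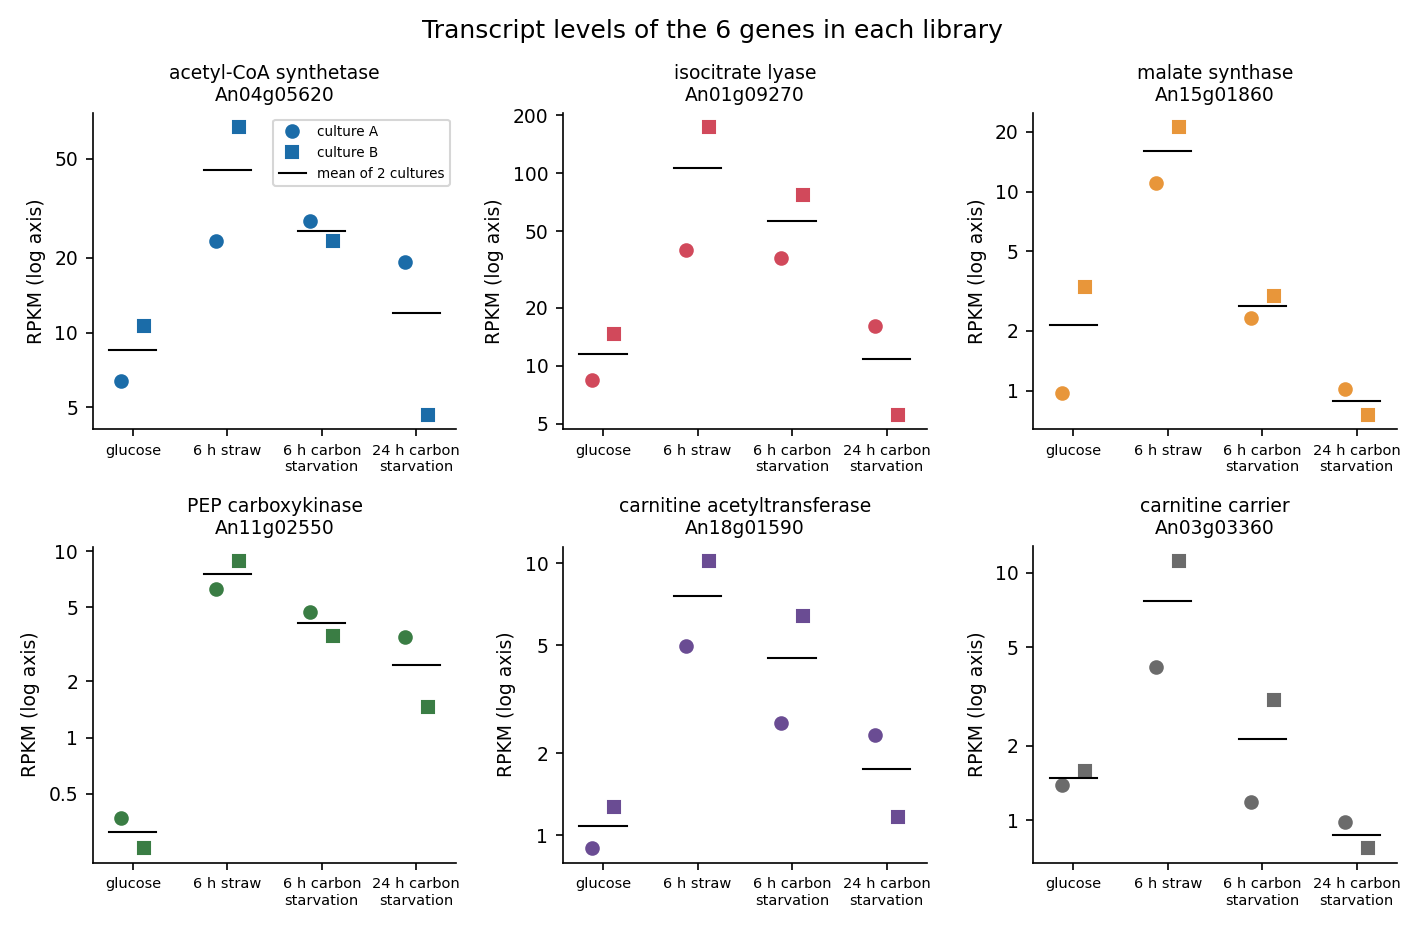
RPKM (log axis, its range differing between panels) of the 6 genes in the 8 libraries, with circles for culture A, squares for culture B and a line for the mean of the 2 cultures. In every panel both straw points lie above both glucose points, and the 24 h starvation points lie below the 6 h starvation points.

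After 6 h on straw the 6 genes stood higher than on glucose. PEP carboxykinase changed most, 24.2-fold in mean RPKM (7.57 ± 1.83 against 0.313 ± 0.0826, SD, n = 2). Isocitrate lyase was 9.23-fold higher (106 ± 93.9 against 11.5 ± 4.40 RPKM), malate synthase 7.45-fold (16.01 ± 7.07 against 2.15 ± 1.66) and acetyl-CoA synthetase 5.28-fold (45.1 ± 30.7 against 8.53 ± 3.0). The log2 fold changes were 4.81 ± 0.49 (SE), 3.23 ± 0.56, 3.04 ± 0.48 and 2.49 ± 0.53 respectively. All 4 were called higher (adjusted p in edgeR 4.55e-07, 0.000216, 8.00e-05 and 0.00132), where 10.8% of the tested genes were called higher and 11.2% lower. The carnitine acetyltransferase (7.004-fold) and carrier (5.18-fold) had been listed by the study from genes raised in this comparison, so their values are a description. The 4 called genes had both straw libraries above both glucose libraries in RPKM, a pattern that 24.1% of tested genes showed. The described pair had this order too. The straw cultures differed widely: in culture B, which had the largest share of reads on genes, isocitrate lyase was 4.32-fold and acetyl-CoA synthetase 2.86-fold above culture A in RPKM, and 2.51-fold and 1.66-fold per reads on genes. Without culture B acetyl-CoA synthetase was no longer called (log2 fold change 2.08) and isocitrate lyase had a log2 fold change of 2.42. Malate synthase ranged from 2.36 without glucose culture A to 4.21 without glucose culture B and was called in both cases.

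At 6 h of starvation, with no carbon source offered, PEP carboxykinase, isocitrate lyase and acetyl-CoA synthetase rose much as on straw. Their log2 fold changes against glucose were 4.73 ± 0.49, 3.21 ± 0.56 and 2.58 ± 0.53, and their mean RPKM was 13.2-fold, 4.92-fold and 3.01-fold higher. Of the 5 genes not chosen from this comparison these 3 were called higher (adjusted p in edgeR 7.15e-07, 0.000203 and 0.000913), where 9.36% of tested genes were called higher and 15% lower. In RPKM these 3 had both libraries above both glucose libraries, as 16.4% of tested genes did, while malate synthase and the carrier did not. Per reads on genes all 5 did, and so did 31.5% of tested genes. The carnitine acetyltransferase, listed by the study from this comparison too, was 4.16-fold higher in RPKM. As a description, its libraries lay above both glucose libraries in either scaling. Malate synthase (log2 fold change 1.25 ± 0.47, adjusted p = 0.0457 in edgeR) and the carrier (1.40 ± 0.43, adjusted p = 0.0175) passed the test but were only 1.24-fold and 1.43-fold higher in RPKM, so they were not called. Malate synthase ranged from 0.57 without glucose culture A (adjusted p = 0.458) to 2.42 without glucose culture B (adjusted p = 0.00320), and the carrier from 0.83 (adjusted p = 0.234) to 1.85 (adjusted p = 0.00485) without 6 h starvation culture B or A, and none of these 4 fits called them. Acetyl-CoA synthetase lay so close to the 3-fold limit that its call was lost without glucose culture A (log2 fold change 2.20) or without 6 h starvation culture A (2.25).

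Straw and starvation were then set against each other at the same time of 6 h. Malate synthase was 6.02-fold higher on straw in mean RPKM, with a log2 difference of 1.79 ± 0.46 (adjusted p = 0.0104 in edgeR), and it was the single gene of the 6 called, where 7.27% of tested genes were called higher. The carrier, listed by the study from genes raised on straw, was 3.61-fold higher in RPKM with a log2 difference of 1.07 ± 0.41. It did not pass (adjusted p = 0.0827 in edgeR). For the other 4 genes the log2 differences were near 0. Their 95% intervals ran from −1.06 to 1.10 for isocitrate lyase, −1.14 to 0.95 for acetyl-CoA synthetase, −0.74 to 0.92 for PEP carboxykinase and −0.84 to 0.84 for the acetyltransferase, which leaves room for differences in either direction. The call for malate synthase was lost without straw culture B (log2 difference 1.71, adjusted p = 0.0704). The carrier was called with the culture letter as a replicate block (1.08, adjusted p = 0.0448) or without 6 h starvation culture B (1.65, adjusted p = 0.0294).

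**Figure D2:**
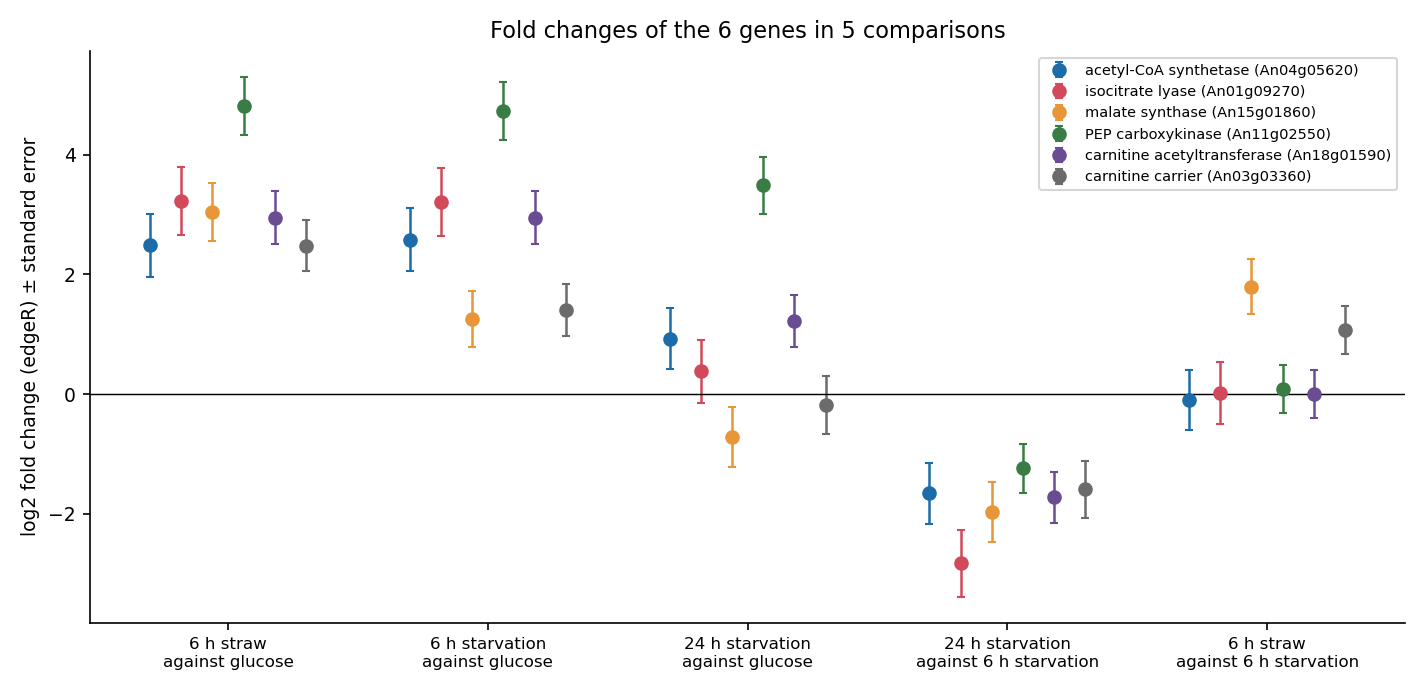
Log2 fold changes from edgeR with their standard errors (vertical axis) for the 6 genes in 5 comparisons (horizontal axis), n = 2 cultures per condition. On straw all 6 points lie between 2.48 and 4.81, and at 24 h of starvation PEP carboxykinase alone stays above 3.

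At 24 h of starvation all 6 genes had lower levels than at 6 h. Isocitrate lyase, malate synthase and the carrier passed the test at an adjusted p below 0.05, as 8.1% of tested genes did in either direction. The acetyltransferase passed too, but the study had listed it from genes raised at 6 h of starvation, so its values are a description. Isocitrate lyase had fallen to 0.190 of its 6 h mean RPKM (log2 difference −2.83 ± 0.56, adjusted p = 0.00261 in edgeR) and malate synthase to 0.333 of it (−1.97 ± 0.50, adjusted p = 0.0179). These 2 were called lower, where 3.13% of tested genes were. The acetyltransferase (−1.72 ± 0.42, adjusted p = 0.0139) and the carrier (−1.59 ± 0.48, adjusted p = 0.0449) passed the test without reaching 3-fold in RPKM. Acetyl-CoA synthetase (−1.66 ± 0.51, adjusted p = 0.0538) and PEP carboxykinase (−1.24 ± 0.41, adjusted p = 0.0740) did not pass. Every gene not listed from 6 h of starvation had both 24 h libraries below both 6 h libraries in RPKM, as 12.3% of tested genes did. The described acetyltransferase had this order too. Malate synthase lay just past the 3-fold limit and was no longer called without 6 h starvation culture B, 24 h starvation culture A or 24 h starvation culture B (log2 difference −2.04 to −1.93), and it had 26 and 18 reads at 24 h. Isocitrate lyase was called in each case, with −3.42 without 24 h starvation culture A, and acetyl-CoA synthetase was called without that library (−2.61, adjusted p = 0.0159). Without 6 h starvation culture A the acetyltransferase (−2.14) and the carrier (−2.04) were called, but neither passed the test without 6 h starvation culture B (−1.19, adjusted p = 0.176, and −1.03, adjusted p = 0.370) or without either 24 h culture.

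Against glucose, only PEP carboxykinase was still called higher at 24 h of starvation, 7.84-fold in mean RPKM (2.45 ± 1.41 against 0.313 ± 0.0826) with a log2 fold change of 3.49 ± 0.48 (adjusted p = 1.36e-05 in edgeR). In this comparison 12.8% of tested genes were called higher and 17.5% lower. The acetyltransferase passed the test at a log2 fold change of 1.23 ± 0.44 (adjusted p = 0.0340) with 1.62 times the glucose RPKM. Acetyl-CoA synthetase (0.93 ± 0.51), isocitrate lyase (0.38 ± 0.52), the carrier (−0.18 ± 0.49) and malate synthase (−0.72 ± 0.50) did not pass (adjusted p 0.164 to 0.798). The 24 h cultures differed 4.12-fold for acetyl-CoA synthetase and 2.88-fold for isocitrate lyase, culture A being higher. Set against 24 h starvation, 6 h straw gave higher levels for all 6 genes, from 1.33 ± 0.41 for PEP carboxykinase to 3.76 ± 0.52 for malate synthase on the log2 scale. These conditions differ in carbon source and in time, which cannot be told apart here. The acetyltransferase and the carrier had been listed by the study from genes raised on straw, so their values are a description. Acetyl-CoA synthetase, isocitrate lyase, malate synthase and PEP carboxykinase were called (adjusted p in edgeR 2.22e-05 to 0.0310), where 12.5% of tested genes were called higher. With the described pair, all 6 were called. With RPKM taken per reads on genes, 3 of them remained called there, isocitrate lyase, malate synthase and the carrier, and the count was also 3 without straw culture B or without 24 h starvation culture B.

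Ratios between transcripts of the same library do not depend on how libraries are scaled, and some pairs were set side by side after the values had been seen. Isocitrate stands at a branch, where isocitrate lyase leads into the bypass and the isocitrate dehydrogenase of the TCA cycle keeps carbon in the oxidative cycle. The TCA cycle list below holds the isocitrate dehydrogenase gene An18g06760 and not icdA, and which of them serves this step was not tested. The ratio of isocitrate lyase to the dehydrogenase icdA (An02g12430) was 0.713 and 1.22 on glucose, 5.87 and 5.22 on straw, 27.5 and 34.5 at 6 h of starvation, and 15.7 and 5.99 at 24 h. icdA was called lower at 6 h of starvation, at 0.149 of its glucose RPKM (log2 fold change −1.81, adjusted p = 0.00517 in edgeR). On straw it did not pass (0.76, adjusted p = 0.222), with 6.81 RPKM in culture A, below the 11.79 and 12.02 on glucose, and 33.1 in culture B, above them. The straw level of icdA exceeded the 6 h starvation level by 2.57 on the log2 scale (called higher, adjusted p = 0.000655). Set against the other isocitrate dehydrogenase gene, An18g06760, the ratio of isocitrate lyase was 0.442 and 1.09 on glucose, 12.4 and 32.0 on straw, 28.9 and 42.4 at 6 h of starvation, and 11.3 and 3.95 at 24 h. Here straw and 6 h starvation overlapped, and An18g06760 was not called between them (log2 difference 0.73, adjusted p = 0.231).

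PEP carboxykinase and pyruvate kinase work in opposite directions around PEP. The ratio of PEP carboxykinase to the pyruvate kinase gene pkiA (An07g08990) was 0.0411 and 0.0324 on glucose, 2.31 and 3.30 on straw, 1.52 and 0.961 at 6 h of starvation, and 0.945 and 0.568 at 24 h. pkiA was called lower on straw (log2 fold change −1.36, adjusted p = 0.0113 in edgeR) and was not called at either time of starvation (−0.35 and −0.86). The ratio of isocitrate lyase to malate synthase was 8.61 and 4.41 on glucose, 3.63 and 8.22 on straw, 15.7 and 25.6 at 6 h of starvation, and 15.7 and 7.35 at 24 h, and 6 h and 24 h of starvation overlapped. The ratio of acetyltransferase to carrier was 0.646 and 0.805 on glucose, 1.19 and 0.911 on straw, 2.19 and 2.09 at 6 h of starvation, and 2.40 and 1.52 at 24 h.

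**Figure D3:**
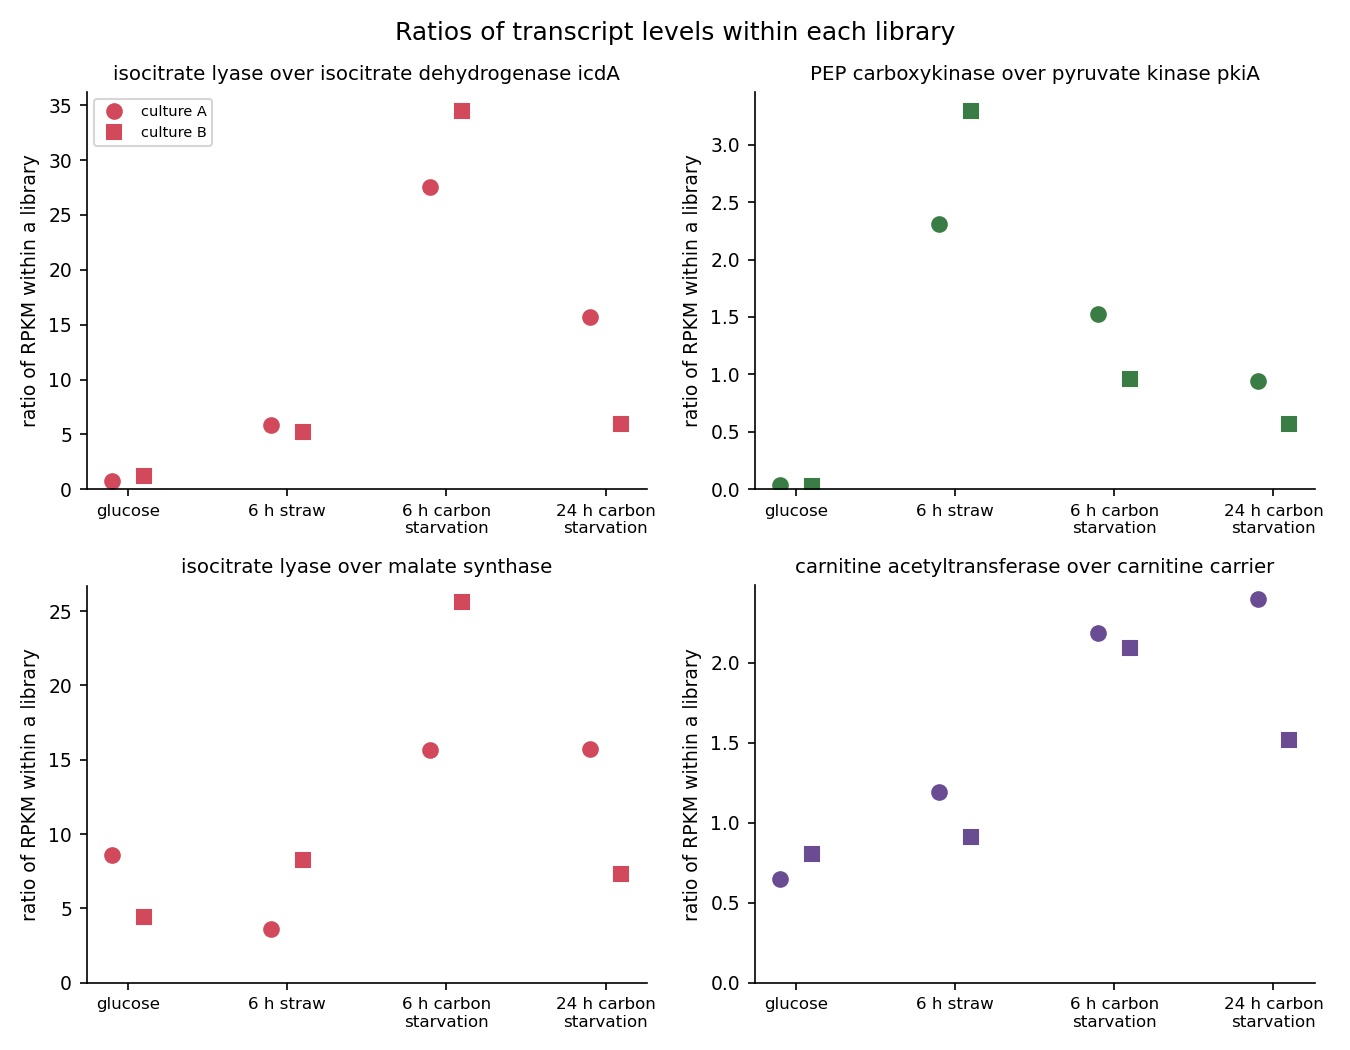
Ratios of RPKM within each library (vertical axes, starting at 0) for 4 pairs of transcripts by condition, circles for culture A and squares for culture B. The ratio of isocitrate lyase to icdA reaches 27.5 and 34.5 at 6 h of starvation, and that of PEP carboxykinase to pkiA is at most 0.0411 on glucose and at least 0.568 elsewhere.

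The steps around the 6 genes were followed through lists of other carbon genes. The fatty acid catabolic, acetate and TCA lists hold only genes that the study had called on these same libraries, so their counts are not independent of it. Of 9 further genes of the fatty acid catabolic term, the straw comparison called 9 higher, while 4 were called higher after 6 h and 2 after 24 h without carbon, with median log2 fold changes of 3.03, 2.46 and 1.53 (medians of all tested genes 0.0066, 0.00 and −0.025). Of all tested genes, 10.8%, 9.36% and 12.8% were called higher in these comparisons, and 11.2%, 15% and 17.5% lower. Among the largest were those for An14g00990, annotated as enoyl-CoA hydratase and 3-hydroxyacyl-CoA dehydrogenase, enzymes of β-oxidation that yields acetyl-CoA (log2 fold changes 5.19, 5.03 and 2.84, all called higher), and An04g05720, with acyl-CoA oxidase among its terms (3.65, 3.60 and 1.87, the last not called). The lipase gene An14g00860 had no reads on glucose and 40 on straw, at least 13.3-fold higher with a floor of 3 reads over the condition, and with this bound the list's median was also 3.03.

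Of the 5 TCA cycle genes, 4 were called higher and 1 lower on straw, 3 and 1 at 6 h of starvation, and 1 and 1 at 24 h. The shares of all tested genes in these comparisons are given above. An09g03870 was called higher on straw (log2 fold change 2.82) but not at 6 h of starvation (0.89, adjusted p = 0.293 in edgeR). The aconitase gene An08g10530, for the enzyme that makes isocitrate, was 18.2-fold higher in RPKM on straw (log2 fold change 4.30) and 3.44-fold at 6 h of starvation (2.73), both called, and exceeded on straw its 6 h starvation level by 1.57 (adjusted p = 0.0133 in edgeR). The succinate dehydrogenase gene An02g12770, whose substrate is the other product of isocitrate lyase, was 16.8-fold and 4.70-fold higher (4.20 and 3.19, both called). An14g04400, also listed as a succinate dehydrogenase gene, had 1 read in all on glucose against 47 and 35 on straw and 21 and 5 at 6 h of starvation, and was called higher in both. The gene called lower was An18g06760, an isocitrate dehydrogenase, with 19.0 and 13.4 RPKM on glucose, 3.22 and 5.40 on straw, and 1.26 and 1.82 at 6 h of starvation. Its log2 fold changes against glucose were −1.72 for straw and −2.44 and −2.91 for the shorter and longer starvation, all called lower.

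The pair of other acetate genes of the study's terms behaved differently from each other. aldA (An08g07290), an aldehyde dehydrogenase whose product is acetate, was called higher on straw and at 6 h of starvation (log2 fold changes 2.40 and 2.80), like acetyl-CoA synthetase. An02g03330, carrying an acetate-CoA ligase term, had 4.995 and 11.3 RPKM on straw but 0.331 and 0.239 on glucose and 0.0315 and 0.0504 at 6 h of starvation, the last from 2 reads in each library. Its straw level exceeded the 6 h starvation level by 6.78 on the log2 scale (adjusted p = 4.80e-07 in edgeR), where the value for acetyl-CoA synthetase was −0.10 ± 0.50. Its neighbour by identifier An02g03320, a predicted 3-ketoacyl-CoA thiolase from a list not chosen for its change, likewise had a higher level on straw than in 6 h starvation (2.497, adjusted p = 0.000886).

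The next lists were not chosen for their change, so their medians cannot be set against those of the lists above. Of 15 carbon genes described in the first stretch of the study's gene table, 11 could be tested. On straw 4 of these rose and 2 fell, 2 rose after 6 h of starvation, and 2 rose and 1 fell after 24 h, with median log2 fold changes of 0.91, 0.26 and −0.28. Of all tested genes, 10.8% were called higher and 11.2% lower on straw. The shares were 9.36% and 15% at 6 h of starvation, and 12.8% and 17.5% at 24 h. The medians of all tested genes were 0.0066, 0 and −0.025. Whether the list differs from these shares was not tested. Both genes called lower on straw, the putative citrate synthase An01g09940 and An01g09930, which has a 2-methylcitrate dehydratase domain, had no reads there and 31 and 29 reads on glucose, at least 10.3-fold and 9.67-fold lower with the same floor. The alcohol dehydrogenase gene An01g12170 had log2 fold changes of 4.42, 5.82 and 4.50, all called higher. Among 7 genes of glycolysis and gluconeogenesis matched by symbol, pkiA was called lower on straw and hxk, for hexokinase, at 24 h of starvation (−1.84). At an adjusted p below 0.05 alone, pyc, for pyruvate carboxylase, which makes oxaloacetate from pyruvate, passed at 6 h of starvation (log2 fold change 1.29, adjusted p = 0.0144 in edgeR) with 1.27 times its glucose RPKM. The citrate synthase gene citA was called lower at 6 h and 24 h of starvation (−2.49 and −2.83) and not on straw (−0.25). The regulators facB, the activator of acetate genes in A. nidulans, and creA, the carbon catabolite repressor, were not called in any comparison with glucose, with log2 fold changes of 0.54 to 0.78 for facB and −0.59 to 0.60 for creA.

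**Figure D4:**
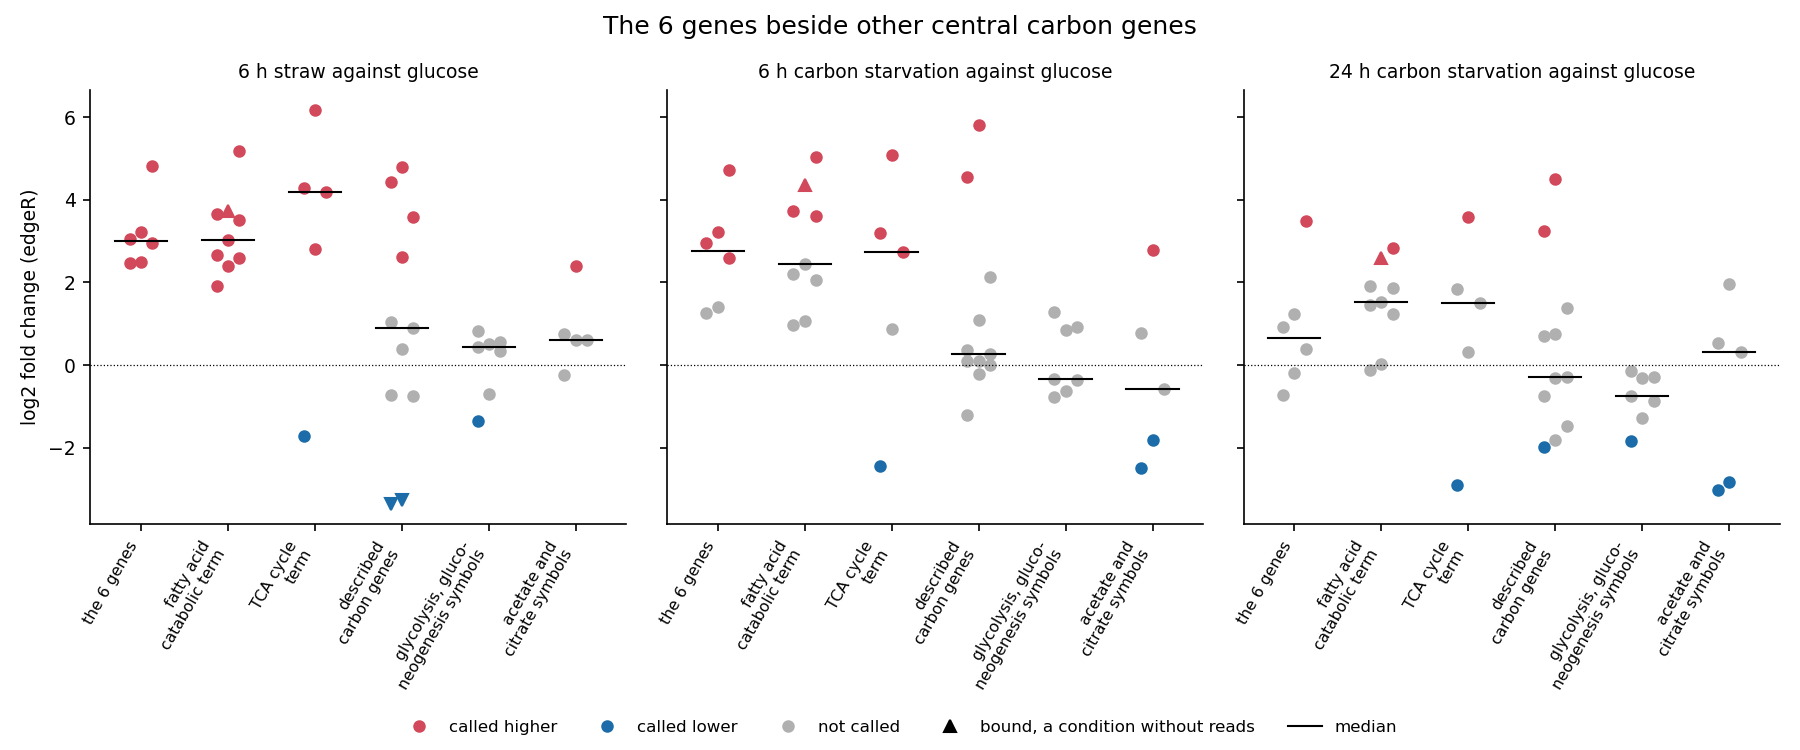
Log2 fold changes from edgeR against glucose (vertical axis) for the 6 genes and 5 lists of carbon genes (horizontal axis) in 3 comparisons, each point a gene, with triangles for bounds and lines for medians. The medians of the 6 genes, which include carnitine genes that the study listed as raised, are 2.996, 2.77 and 0.66. Those of the genes of the glycolysis and gluconeogenesis symbols are 0.43, −0.33 and −0.75. These symbols were not chosen for their change, so the medians cannot be set against those of the 6.

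The genes whose levels over the 8 libraries most resembled the mean profile of the 6 were sought among 2044 other genes with a mean of at least 50 reads, as a description without a test. An16g05340 was nearest (Pearson r = 0.994, over 8 libraries that share depth and culture). It had 2.24 and 4.25 RPKM on glucose, 26.05 and 54.8 on straw, 12.1 and 21.6 at 6 h of starvation, and 5.61 and 3.44 at 24 h. It was followed by An13g03680 (0.985), which the study places among monocarboxylic acid and allantoate transport genes, An16g04880 (0.981), listed under protein import into the peroxisome matrix, An13g00950 (0.970), listed under alditol metabolism, and An01g09620 (0.969), a predicted long-chain-alcohol oxidase. The succinate dehydrogenase gene An02g12770 and the aconitase gene An08g10530 ranked 19th and 20th. Among the 6 themselves, r between pairs ran from 0.594 for malate synthase with PEP carboxykinase to 0.948 for isocitrate lyase with the acetyltransferase.

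Immediate neighbours of the 6 genes in the RefSeq gene order were looked up after the values had been seen. Of 12 neighbours 4 could be tested. An01g09260, a predicted aldehyde dehydrogenase next to isocitrate lyase, was called higher on straw (log2 fold change 2.61 ± 0.44, 2.37 and 4.30 against 0.625 and 0.602 RPKM, adjusted p = 0.000148 in edgeR) and ranked 6th by likeness to the 6. At 6 h of starvation it passed the test (2.13, adjusted p = 0.00106) at 2.34 times the glucose RPKM. An11g02540, next to PEP carboxykinase, was called higher at 6 h and 24 h of starvation (5.03 and 5.35) with at most 1.26 RPKM, and was not called on straw (2.51, adjusted p = 0.0747). The tested neighbours of acetyl-CoA synthetase and malate synthase, An04g05630 and An15g01850, were not called in any comparison with glucose. In straw against 6 h starvation, An15g01850 was called higher, as malate synthase was (log2 difference 1.67, adjusted p = 0.0240 in edgeR, 5.59-fold in RPKM). There An11g02540 was called lower (−2.52, adjusted p = 0.0112), and An04g05630 and An01g09260 were not called.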

How the data were processed

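Per the labels and the methods of the study, total RNA was depleted of ribosomal RNA and sequenced on a SOLiD 5500xl instrument. The authors mapped the reads, counted forward reads that aligned uniquely with a mapping quality of at least 20 per gene with HTSeq, and deposited raw counts and RPKM for each library. The 5 summary rows of reads without a gene held 96.6% to 98.6% of all counts and entered the deposited RPKM, but not the tests. Counts were tested in edgeR 4.0.16 (R 4.3.3) with filterByExpr, TMM factors and 1 term per condition over all 8 libraries, and p-values were adjusted over 6357 genes. SEs are the log2 fold change over the root of F. The fit was tested on simulated data. With 2 cultures per condition, p-values rest on the spread between cultures within conditions, pooled over all conditions (4 residual degrees of freedom). edgeR also shares this estimate across genes. No exact test on 2 against 2 could pass, so none was run. Alternatives were DESeq2 1.42.0, other scalings, filters and thresholds, a replicate block and leaving out each library. All 6 genes passed the filter. Members and lists were chosen with earlier results of these data known; up to 4 genes per list were named, those with the largest called change or at a neighbouring step, and the 5 most alike. Neighbours, ratios and the spellings hxk and pyc were added after seeing the data. Of 17 and 27 symbols sought for the lists of glycolysis and gluconeogenesis and of acetate and citrate genes, 7 and 5 matched RefSeq (ASM285v2). Intervals and floors cover counting or replicate error only. Coordinates, sequences and straw at 24 h were not analysed here.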

Additional observations from a re-analysis of the deposited data

Results flagged for a closer look

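The effect of starvation differed between its 2 times for isocitrate lyase, malate synthase and the carnitine carrier, by the test of 24 h against 6 h starvation (edgeR, adjusted p below 0.05), which 8.1% of all tested genes passed. The carnitine acetyltransferase passed too, but the study had listed it from genes raised at 6 h of starvation, so its value is a description. The log2 difference was −2.83 for isocitrate lyase (An01g09270), −1.97 for malate synthase (An15g01860), −1.72 for the carnitine acetyltransferase (An18g01590) and −1.59 for the carnitine carrier (An03g03360). Both 24 h libraries lay below both 6 h libraries in RPKM for each of them. Leaving out a library, isocitrate lyase passed each time, while the adjusted p reached 0.146 for malate synthase, 0.176 for the acetyltransferase and 0.370 for the carrier, and these 3 then no longer passed. The summed level of the 3 conidiation genes was higher in the 24 h libraries, though An01g08900 was not above glucose. The part of spore-forming cells in these differences was not tested.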

How the results depend on the processing

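Each of the 36 fold changes (6 genes in 6 comparisons) was recomputed under 13 alternatives, giving 468 values. Of these 417 kept their direction and their side of the call, 23 lost the call, 12 gained it, and 16 changed sign, all in values called in neither fit. Scaling by reads on genes alone moved the median log2 value of all genes from −0.025 to 0.19 at 24 h of starvation against glucose and turned the carrier (An03g03360) to 0.038 there and the acetyltransferase (An18g01590) to 0.055 in straw against 6 h starvation, where it was 0.041 without a low-count filter. The letters A and B are not stated to pair cultures, and same-letter libraries deviated together with r of −0.07 to 0.28. With the letter as a replicate block, straw against 6 h starvation gave −0.031 for isocitrate lyase, 0.036 for the acetyltransferase and 2 genes called higher instead of 1. Leaving out 1 library at a time, straw against 6 h starvation ran from −0.51 to 0.24 for acetyl-CoA synthetase, −0.80 to 0.54 for isocitrate lyase, −0.26 to 0.53 for PEP carboxykinase and −0.41 to 0.55 for the acetyltransferase, with 0 to 2 genes called higher. In 24 h starvation against glucose it ran from −0.042 to 1.49 for acetyl-CoA synthetase, −0.23 to 0.85 for isocitrate lyase and −1.35 to 0.44 for malate synthase. The adjusted p alone gave 2 genes higher there instead of 1, and 4 lower instead of 2 in 24 h against 6 h starvation, as did a 3-fold limit on edgeR's estimate, and leaving out libraries gave 1 to 4. In straw against 24 h starvation RPKM per reads on genes gave 3 genes instead of 6, and leaving out libraries 3 to 6. Depth limits the least abundant genes: on glucose PEP carboxykinase rests on 16 and 13 reads, and the carrier at 24 h of starvation on 15 and 11.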
